A study of Mus musculus with 15 samples.

Results

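The genes of the proteasome were followed in mouse lung group 2 innate lymphoid cells (ILC2s), tissue lymphocytes that have no rearranged antigen receptor and secrete type 2 cytokines. Members were all features of the array table that carried exactly 1 gene symbol made of Psm, a letter from a to g and a number. Of several features of a gene, the brightest by its mean over the 15 arrays stood for it. This gave 49 genes from 52 features, among 22180 genes with such a feature. After a filter on dim features 47 were tested, among 16257 genes tested in all. Psma8 and Psmb11, the alpha and beta subunits of the testis and thymus forms of the proteasome, stayed below the filter. No feature named Psma4 or Psme2b by itself, and 4 features whose several symbols matched the rule were left out. Psmc3ip, a cofactor of meiotic recombination, and Psme3ip1, a protein that binds the activator Psme3, matched by their names only and are not proteasome subunits.

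The proteasome is the protease that degrades proteins tagged with ubiquitin. Its barrel, the 20S core, is built from alpha rings (Psma) that gate the entrance and beta rings (Psmb) that hold the active sites, and the 19S cap recognises, unfolds and feeds in the substrate with ATPases (Psmc) and non-ATPase subunits (Psmd). In lymphocytes and in cells exposed to interferon, the catalytic subunits Psmb6, Psmb7 and Psmb5 can be replaced in newly built cores by Psmb9, Psmb10 and Psmb8, which gives the immunoproteasome, known for trimming peptides for presentation on MHC class I.

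The 15 arrays formed 5 groups of 3. Naive adult females and naive adult males were 8 weeks old and received no treatment that the labels name. Effector adult females and effector adult males were given IL-33, a cytokine released by epithelium that stimulates these cells, through the nose on 3 consecutive days, and their cells were isolated 1 day after the last dose. Neonates were 10 days old and are labelled naive, and the labels do not give the sex of each neonatal array. No group was dosed without IL-33, so the cytokine, the dosing itself and anything else that set the dosed animals apart cannot be told apart. The sources used here do not give the strain, sorting markers, mice per array or batches, so p-values measure the spread between these arrays.

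Values are log2 levels after RMA, the standard summary of Affymetrix probes. A level depends on the probes of a feature, so levels were compared between arrays and never between genes. The median level of an array over all features lay between 4.44 and 4.64. The arrays that correlated least with the others of their group were neonate 2 (median r = 0.909), naive male 3 (0.912) and naive male 1 (0.913). Close to these were naive male 2 (0.9136), neonate 1 (0.9145) and neonate 3 (0.9195). Naive females lay at 0.9358 to 0.9503 and effector arrays at 0.9646 to 0.9717, so the likeness of arrays differed by group. As a measure of background, the upper quartile of the 387 sensory receptor genes that passed the dim filter was 5.22 in naive and 4.35 in effector adults and 4.68 in neonates. Within naive adults it was 5.03 in females and 5.43 in males. The filter asked for 3 arrays only, so it may raise this measure in the groups through which receptors passed. How far it did was not tested, and the measure is a rough guide. Psma5 lay within that range in every group, so its probes gave no usable level, and Psmb3 lay within it in naive adults and neonates. Of 11 ILC2 markers tested, Il13, the type 2 cytokine, was higher by 3.07 ± 0.14 (log2, moderated SE) in effector than in naive adults and by 2.36 ± 0.17 in neonates (limma adjusted p = 4.88e-10 and 7.04e-07). In all, 4 of the 11 were higher and 2 lower in effector adults, against 23.7% and 10.9% of all genes. In neonates 3 were higher and 1 lower, against 6.04% and 4.12% of all genes. Nmur1, the receptor for neuromedin U, fell by 2.36 ± 0.22 and Il7r, a chain of the IL-7 receptor, by 1.11 ± 0.14 in effector adults (limma adjusted p = 9.83e-07 and 2.82e-05). In neonates Il7r fell by 0.66 ± 0.17 (0.0263), a call lost without any of naive female 2, neonate 1 and neonate 2. In these bulk samples a change in the share of a cell type and a change in RNA per cell cannot be told apart.

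In effector adults most proteasome genes were higher than in naive adults and none was called lower. By limma's moderated test, with Benjamini-Hochberg adjustment over all 16257 genes and a call at an adjusted p under 0.05, 36 of the 47 genes were higher and 0 lower, against 23.7% of all genes called higher and 10.9% called lower. Without the 2 genes that match by name only, 35 of 45 were higher. The median difference of the 47 genes was 0.68 on the log2 scale, against 0.03 over all genes. In 29 of the 47 every effector array lay above every naive array, as in 15.2% of all genes. Among the 3858 genes with a mean level of at least 7, a limit chosen after the data were seen, 42.2% were called higher. For the other comparisons below, counts are set only against the share over genes of any level. The shift was uneven between the parts of the complex: the 19S cap had a median difference of 0.82 over 17 genes, the assembly chaperones 0.78 over 7 and the 20S core without the immunoproteasome subunits 0.43 over 13. The mean level of the 17 cap genes lay between 7.70 and 8.09 in the naive arrays and between 8.50 and 8.90 in the effector arrays, so these groups did not overlap.

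**Figure D1:**
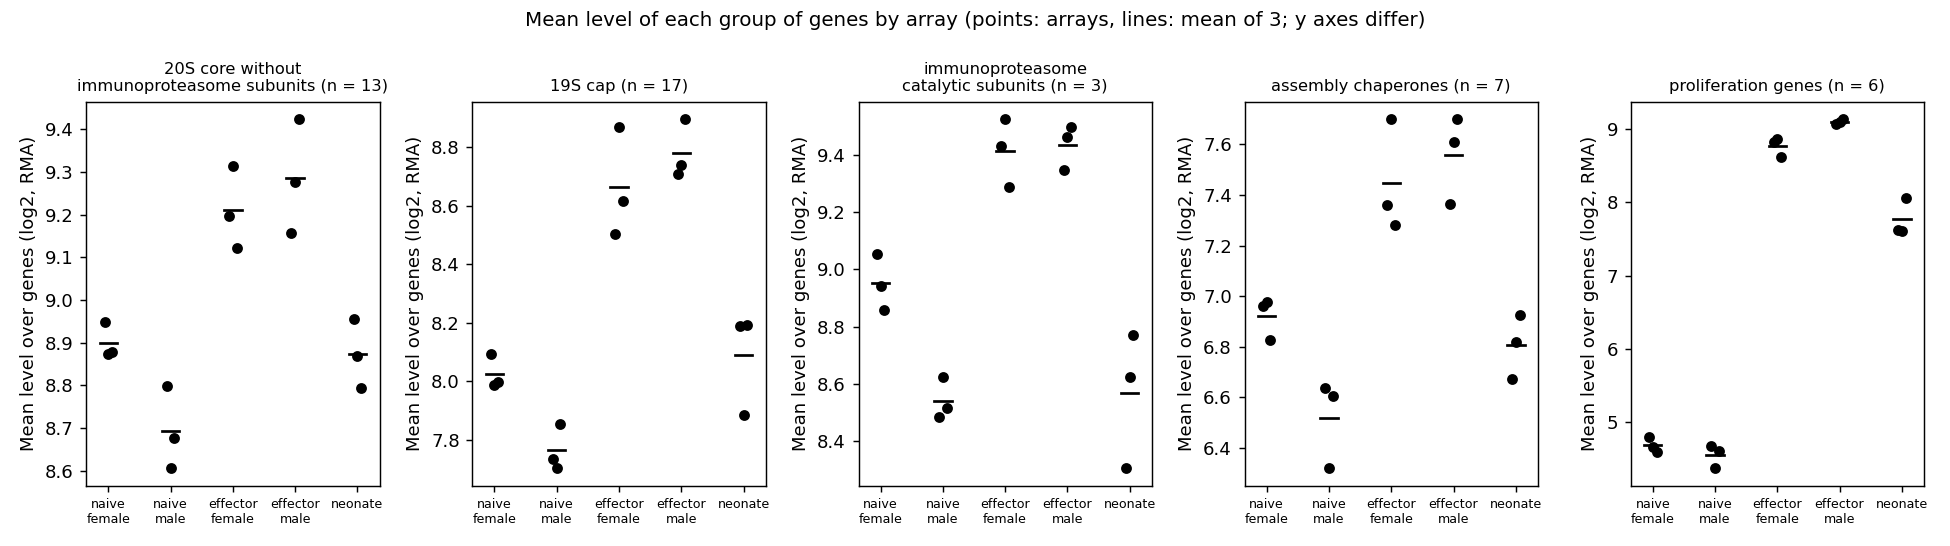
Mean log2 level in each array of the 20S core without immunoproteasome subunits, the 19S cap, the immunoproteasome subunits, the assembly chaperones and the proliferation genes, in the 5 groups; points are arrays, lines are group means of 3, and the vertical axes differ. For the 19S cap the effector arrays (8.50 to 8.90) lie above the naive arrays (7.70 to 8.09) and the neonatal mean of 8.09 lies at the top of the naive range.

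Within the 20S core, 4 of 6 alpha ring genes were called higher in effector adults. Psma7 rose by 0.78 ± 0.13 and Psma1 by 0.69 ± 0.16 (limma adjusted p = 2.22e-04 and 0.0040), and Psma2 and Psma6 were also called, each higher in every effector array than in any naive array. Psma3 differed by 0.20 ± 0.12 (limma adjusted p = 0.216) and was not called, and Psma5, at background, by -0.05 ± 0.19 (0.873). Of the 4 beta ring subunits without an active site, 3 were called higher. Psmb4 rose by 0.56 ± 0.11 and Psmb1 by 0.31 ± 0.09 (limma adjusted p = 9.85e-04 and 0.0149), and Psmb2, whose groups overlapped, by 0.36 ± 0.12 (0.0272). The Psmb2 call was lost without any of 6 single arrays and after a further quantile normalization.

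The catalytic subunits that do the cutting in the standard core split into a pair that rose and Psmb6, which was not called. Psmb5, the chymotrypsin-like subunit, ranged from 9.53 to 10.42 with a median of 10.26 in the 6 naive arrays and from 10.75 to 11.10 with a median of 10.95 in the 6 effector arrays. The groups did not overlap, and Psmb5 rose by 0.80 ± 0.12 or 1.74-fold (95% interval 0.53 to 1.06 log2 units, limma adjusted p = 1.70e-04). Psmb7, the trypsin-like subunit, ranged from 8.52 to 8.88 (median 8.56) in naive and from 9.33 to 9.59 (median 9.45) in effector adults. It too showed no overlap and rose by 0.85 ± 0.14 (limma adjusted p = 2.03e-04). Psmb6, the caspase-like subunit, ranged from 8.09 to 8.53 in naive and from 8.42 to 8.83 in effector adults. These ranges overlapped, and its difference of 0.22 ± 0.11 (95% interval -0.02 to 0.45, limma adjusted p = 0.149) missed the threshold.

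Psmb9, the immunoproteasome subunit that takes the place of Psmb6, had the largest rise of the catalytic subunits. Its level was 8.91, 8.81 and 8.40 in naive females, 8.06, 8.28 and 8.28 in naive males, 9.70, 9.82 and 9.40 in effector females and 9.63, 9.78 and 9.79 in effector males. Every effector array lay above every naive array, and naive females lay above naive males. The rise was 1.23 ± 0.15 log2 units or 2.35-fold (95% interval 0.91 to 1.55, n = 6 and 6, limma adjusted p = 1.72e-05). Psmb8, which takes the place of Psmb5, ranged from 7.52 to 8.27 (median 8.15) in naive and from 8.49 to 8.70 (median 8.59) in effector adults. The groups did not overlap, and Psmb8 rose by 0.56 ± 0.12 or 1.48-fold (limma adjusted p = 0.0023). Psmb10, which takes the place of Psmb7, ranged from 9.48 to 9.98 (median 9.78) in naive and from 9.89 to 10.10 (median 10.01) in effector adults. The ranges overlapped, and its difference of 0.24 ± 0.10 (95% interval 0.02 to 0.46, limma adjusted p = 0.0836) was not called. Psmb10 was called once arrays had been centred on their medians and with a trended and robust prior.

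Because each immunoproteasome subunit competes with a standard counterpart, the per-array log2 difference between the members of each pair was compared between groups. The size of such a difference depends on the probes, so only its change was read. Psmb9 minus Psmb6 was 0.07 ± 0.28 (SD, n = 6) in naive and 1.09 ± 0.12 in effector adults. All effector arrays (0.93 to 1.21) lay above all naive arrays (-0.41 to 0.38), so Psmb9 rose by 1.02 more than Psmb6 (two-sided exact permutation p = 0.0022, the smallest that 924 permutations can give; 0.0097 adjusted over 9 pair tests). Psmb10 minus Psmb7 moved the other way, from 1.16 ± 0.18 in naive to 0.55 ± 0.09 in effector adults. Again no array overlapped, and the difference fell by 0.61 (exact permutation p = 0.0022, adjusted 0.0097). Psmb8 minus Psmb5 was -2.13 ± 0.40 in naive and -2.36 ± 0.10 in effector adults. These arrays overlapped, and the change of -0.23 was not called (exact permutation p = 0.204, adjusted 0.366). That result depended on single arrays. Without naive male 3 the change was -0.34 and was called (exact permutation p = 0.0022, adjusted 0.0065). Without naive male 2 it was -0.09 and was not called (exact permutation p = 0.411, adjusted 0.617). Without neonate 2, naive male 3 and naive male 1 the change was -0.39 (exact permutation, adjusted p = 0.0143), with naive male 2 the only naive male array.

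**Figure D2:**
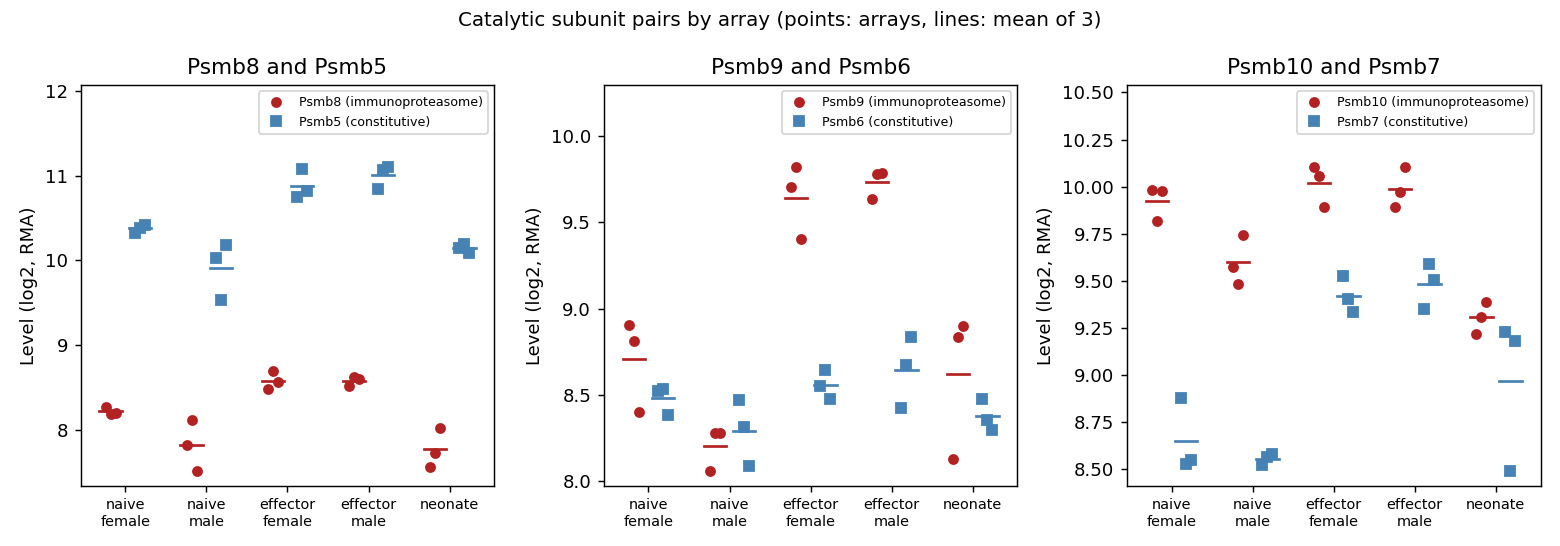
Log2 level of each immunoproteasome subunit (red circles) and of its standard counterpart (blue squares) in every array, with lines at the means of 3. Psmb9 separates from Psmb6 in the effector arrays, where the pair differs by 0.93 to 1.21, while Psmb7 comes closer to Psmb10 there; heights of different genes are not comparable.

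The promoters of these genes were read as a description, since the pairs moved differently. Shown are the 250 bases before the RefSeq start of transcription in build GRCm38.p6, written along the gene's own strand, for Psmb9 (chr17:34187331-34187580, minus strand) and Psmb6 (chr11:70525107-70525356, plus strand), which diverged in effector cells, and for Psmb8 (chr17:34197945-34198194, plus strand) and Psmb5 (chr14:54617996-54618245, minus strand), both of which rose. Capitals mark matches, on either strand, to any of 4 motifs: CCAAT, the box bound by NF-Y (the match before Psmb9 lies on the opposite strand); the gamma-activated sequence TTCNNNGAA (before Psmb8); the core of the antioxidant response element TGACNNNGC, bound by the Nfe2l1 and Nfe2l2 factors (before Psmb6 and Psmb5); and the core of the interferon-stimulated response element, GAAA, any pair of bases and GAAA (no match here).
Psmb9: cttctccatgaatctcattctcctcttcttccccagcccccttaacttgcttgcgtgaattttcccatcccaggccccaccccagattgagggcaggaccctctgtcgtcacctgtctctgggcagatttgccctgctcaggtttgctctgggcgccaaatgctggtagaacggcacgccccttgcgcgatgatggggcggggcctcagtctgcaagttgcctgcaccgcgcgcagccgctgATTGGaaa
Psmb6: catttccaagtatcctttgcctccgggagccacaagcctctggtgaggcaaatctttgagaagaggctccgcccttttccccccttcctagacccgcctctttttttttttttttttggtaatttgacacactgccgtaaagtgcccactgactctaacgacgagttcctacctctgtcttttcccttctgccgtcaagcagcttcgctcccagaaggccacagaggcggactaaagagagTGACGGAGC
Psmb8: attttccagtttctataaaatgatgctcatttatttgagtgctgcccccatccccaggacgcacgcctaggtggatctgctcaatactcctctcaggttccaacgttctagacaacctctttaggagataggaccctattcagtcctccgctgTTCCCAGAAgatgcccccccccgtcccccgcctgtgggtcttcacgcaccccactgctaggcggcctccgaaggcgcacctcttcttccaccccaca
Psmb5: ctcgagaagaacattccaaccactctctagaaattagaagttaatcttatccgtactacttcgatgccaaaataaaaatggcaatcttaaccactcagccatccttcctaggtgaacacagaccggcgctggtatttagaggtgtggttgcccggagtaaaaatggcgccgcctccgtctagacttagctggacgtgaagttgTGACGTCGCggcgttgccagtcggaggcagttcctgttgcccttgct
The Psmb8 stretch held TTCCCAGAA from base -97 to -89 before the start, and the Psmb6 and Psmb5 stretches held TGACGGAGC from -9 to -1 and TGACGTCGC from -47 to -39. Over windows of 250 bases before and 50 after the start, which were given for 39 of 47 searched proteasome genes, the antioxidant motif was found in 6 or 15.4% of them, against 14% of 27025 genes. The gamma-activated sequence was found in 3 or 7.69% against 9.55%, the CCAAT box in 14 or 35.9% against 41.1%, and the interferon-stimulated element in 5 or 12.8% against 3.99%. The 5 genes with that element were Psmb3, Psmd4, Psmd9, Psme1 and Psmg4, of which only Psmd9 and Psmg4 were called higher in effector adults. No overlapping matches fell in the printed stretches, and a match of letters is not a measured binding site.

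Psmb9 and Psmb8 lie in the MHC region of chromosome 17 on either side of Tap1, which encodes a subunit of the transporter that carries peptides to MHC class I, with Tap2 next in line. Tap1 rose by 1.24 ± 0.14 in effector adults (limma adjusted p = 9.07e-06). Of 13 tested genes of MHC class I presentation, 6 were higher and 0 lower, against 23.7% and 10.9% of all genes. Among genes with a mean level of at least 7, 42.2% were called higher. The others with the largest differences were Canx and Calr, chaperones of the endoplasmic reticulum, at 0.95 ± 0.11 and 0.80 ± 0.13, and Nlrc5, the transactivator of MHC class I genes, at 0.84 ± 0.17 (limma adjusted p = 1.17e-05, 2.60e-04 and 0.0015). In the same list 7 genes were not called. B2m and H2-K1, which encode MHC class I itself, overlapped between the groups. B2m ranged from 12.44 to 12.67 in naive and from 12.37 to 12.72 in effector adults, and H2-K1 from 9.97 to 10.59 and from 10.35 to 10.69. Of 11 interferon signalling genes and IRF regulators 5 were higher and 0 lower, against the same shares of all genes. The largest differences were those of Irf8 at 1.19 ± 0.19, Irf9 at 1.08 ± 0.16, Stat2 at 0.71 ± 0.24 and Irf1 at 0.70 ± 0.15 (limma adjusted p = 2.03e-04, 1.01e-04, 0.0347 and 0.0017). Irf8 lay within the background range in naive adults, and the Stat2 call was lost when any of 8 single arrays was left out.

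In the 19S cap 15 of 17 genes were higher in effector adults. Of the 6 ATPases that form its motor ring, 5 were higher, led by Psmc1 at 1.09 ± 0.16 and Psmc6 at 1.07 ± 0.18 (limma adjusted p = 8.60e-05 and 2.83e-04). Psmc3 differed by 0.26 ± 0.10 (0.0627) and was not called, and the smallest called rise was that of Psmc5, 0.68 ± 0.13 (8.77e-04). Psmc2, at 1.03 ± 0.13, had a second, dimmer feature whose mean moved from 6.30 to 6.67 only, and with the mean of both features the difference was 0.70. Of 11 non-ATPase subunits, 10 were higher. Psmd7, the lid subunit that pairs with the deubiquitinase Psmd14, had the largest rise of all subunits. It ranged from 6.70 to 8.05 (median 7.81) in naive and from 8.91 to 9.32 (median 9.14) in effector adults. The groups did not overlap, and Psmd7 rose by 1.47 ± 0.19 or 2.77-fold (95% interval 1.07 to 1.87, limma adjusted p = 2.66e-05). Psmd13, another lid subunit, rose by 1.15 ± 0.16, and Psmd2, the docking scaffold of the base, by 1.10 ± 0.17 (limma adjusted p = 6.64e-05 and 1.51e-04). Psmd6, in the lid, had the smallest called rise, 0.62 ± 0.12 (0.0013). Psmd4, a ubiquitin receptor, differed by 0.20 ± 0.12 (95% interval -0.06 to 0.46, limma adjusted p = 0.228) and was the only non-ATPase not called.

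**Figure D3:**
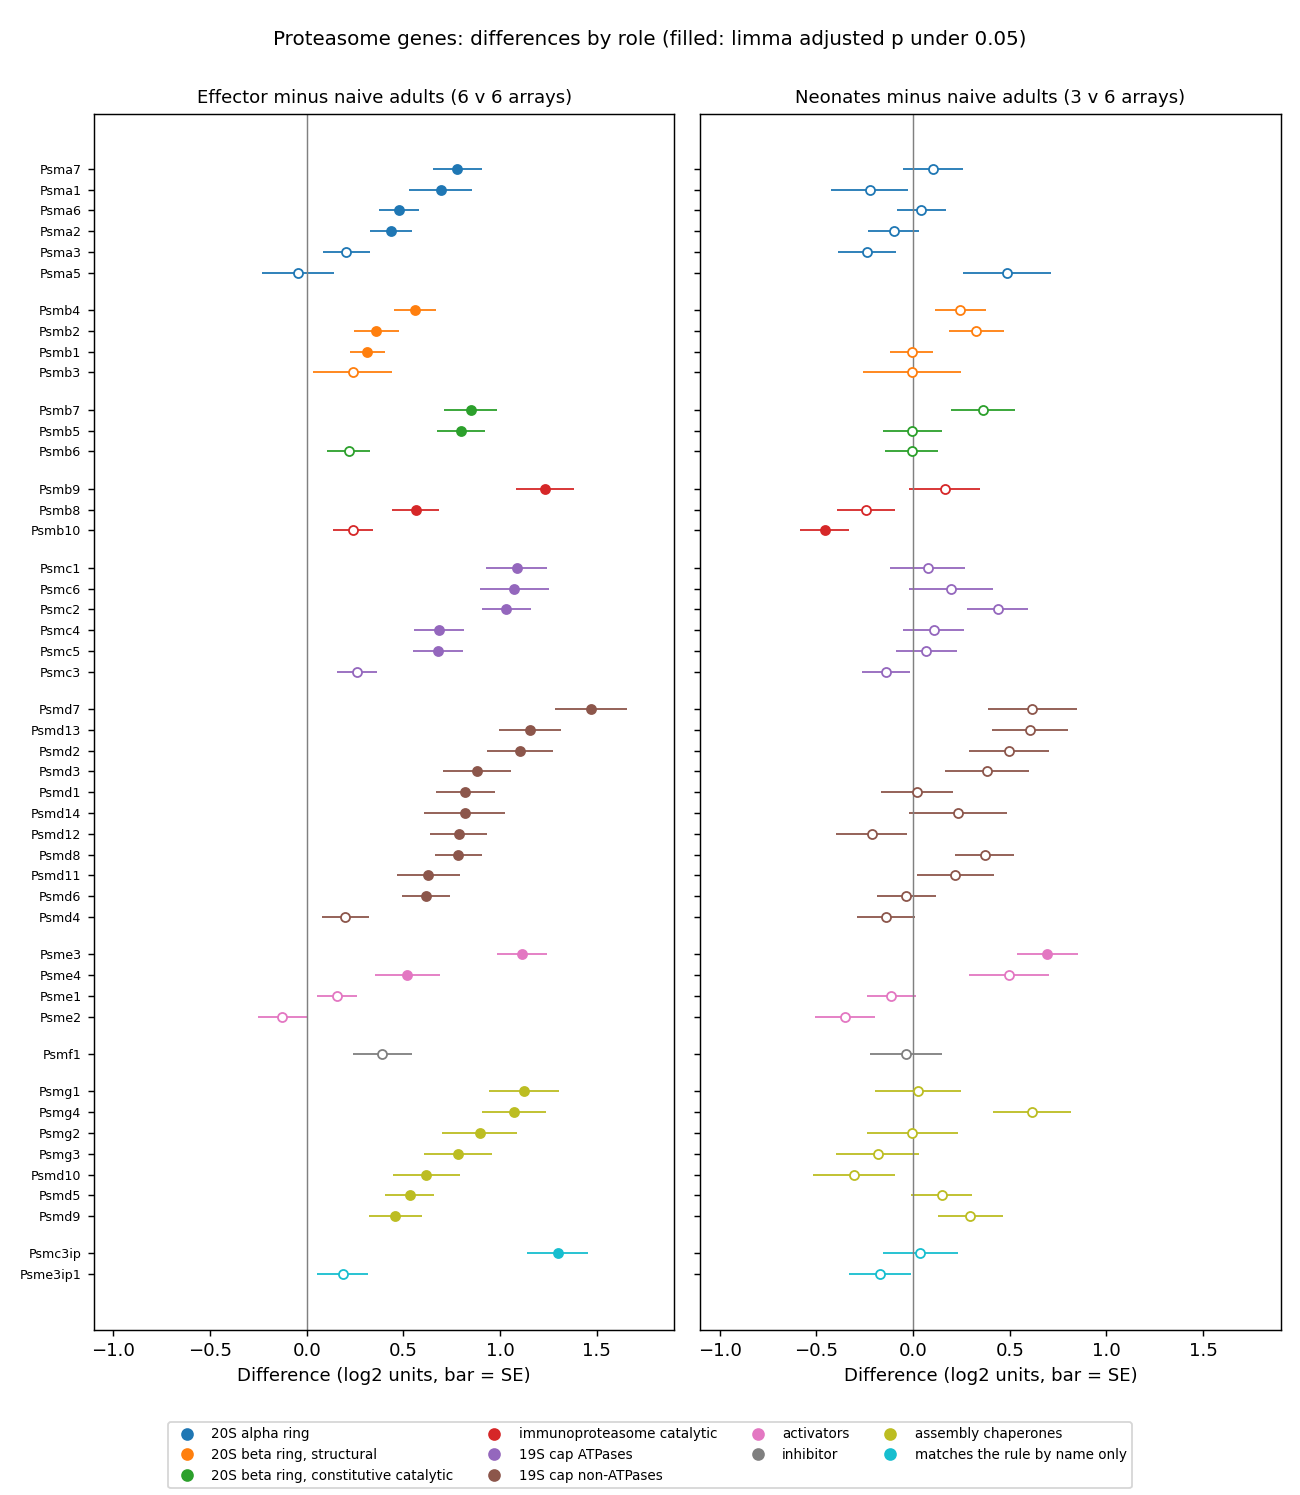
Log2 difference of each tested proteasome gene, sorted within its role, with moderated SE bars; effector minus naive adults on the left and neonates minus naive adults on the right, filled where limma's adjusted p was under 0.05. On the left 36 of 47 points are filled, all to the right of 0, and on the right only Psme3 and Psmb10 are filled, on opposite sides of 0.

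Of the 4 activators, which cap the core in place of the 19S particle, 2 were higher and 0 lower. Psme1 and Psme2 form the interferon-inducible activator PA28 alpha-beta, which opens the core for peptides. Psme1 ranged from 7.49 to 7.77 (median 7.68) in naive and from 7.69 to 7.94 (median 7.78) in effector adults, and Psme2 from 6.40 to 7.47 (median 6.86) and from 6.50 to 7.05 (median 6.77). Both overlapped between the groups, and their differences of 0.16 ± 0.10 (95% interval -0.07 to 0.38) and -0.13 ± 0.13 (-0.40 to 0.14) were not called (limma adjusted p = 0.267 and 0.467). Psme3, the nuclear activator PA28 gamma, ranged from 6.03 to 6.86 (median 6.22) in naive and from 7.23 to 7.64 (median 7.40) in effector adults. It showed no overlap and rose by 1.11 ± 0.13 or 2.16-fold (limma adjusted p = 1.04e-05). Psme4, the activator PA200, ranged from 6.65 to 7.40 and from 7.40 to 7.72. It rose by 0.52 ± 0.17 (limma adjusted p = 0.0270), a call lost when any of 5 single arrays was left out. Psmf1, the inhibitor PI31, ranged from 5.35 to 6.25 and from 6.05 to 6.46 and was not called at 0.39 ± 0.15 (limma adjusted p = 0.0588). Psme1 and Psme2 lie close together on chromosome 14, with Emc9 between them and Irf9 nearby; of these, Irf9 rose as given above.

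**Figure D4:**
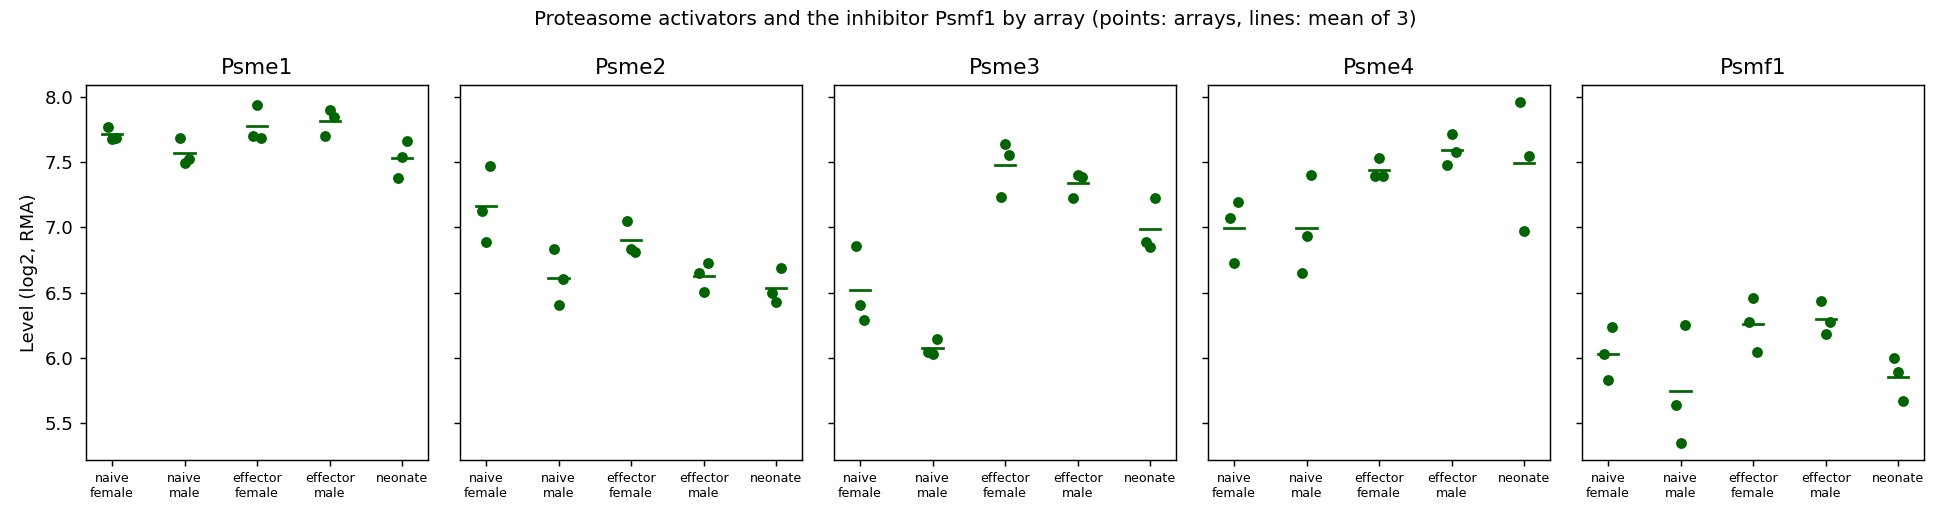
Log2 level of the 4 activator genes and the inhibitor Psmf1 in every array, with lines at the means of 3. Psme3 is at 7.23 or more in all effector arrays and at 6.86 or less in all naive arrays, while Psme1 and Psme2 overlap between these groups.

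All 7 assembly chaperones, which put the core and the cap together without staying in them, were higher in effector adults. The largest rises were those of Psmg1 and Psmg4, core chaperones, at 1.13 ± 0.18 and 1.07 ± 0.16 (limma adjusted p = 2.17e-04 and 1.43e-04). The smallest were those of the cap chaperones Psmd5, at 0.53 ± 0.13, and Psmd9, at 0.46 ± 0.14 (0.0047 and 0.0184), both with overlapping groups, and the Psmd9 call was lost without effector female 2. Psmg2 rose by 0.89 ± 0.19, and a second feature of the gene moved from 5.96 to 6.18. Outside the rule, 6 of 11 tested partners of the proteasome were higher and 0 lower, against 23.7% and 10.9% of all genes. Usp14 and Uchl5, deubiquitinases that bind the cap, rose by 1.12 ± 0.20 and 0.94 ± 0.11, the thioredoxin-like partner Txnl1 by 0.87 ± 0.17 and Pomp, which matures the core, by 0.82 ± 0.14 (limma adjusted p = 4.90e-04, 1.72e-05, 0.0010 and 3.17e-04). Of 8 regulators of proteasome genes, 4 were higher and 1 lower, against the same shares of all genes. Vcp, the segregase that releases Nfe2l1 from the endoplasmic reticulum, rose by 0.94 ± 0.12 and Mafk, a partner of Nfe2l1 on DNA, by 0.69 ± 0.17 (limma adjusted p = 2.17e-05 and 0.0058). Nfe2l2, an activator of antioxidant genes, rose by 0.45 ± 0.17 (0.0480), a call lost when any of 12 single arrays was left out. Ngly1, the glycosidase that processes Nfe2l1, fell by 0.66 ± 0.17 (limma adjusted p = 0.0070). This call was lost without the 3 least correlated arrays, where naive male 2 was the only naive male array. Of the genes that match the rule by name only, Psmc3ip rose by 1.30 ± 0.16 (limma adjusted p = 1.84e-05) from a level within the background range, and Psme3ip1, at 0.19 ± 0.13, was not called (0.292).

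Other quantities moved with the same groups. All 6 tested proliferation genes were higher in effector adults, by a median of 4.35, and their mean level was 4.37 to 4.79 in naive and 8.62 to 9.13 in effector arrays. Of these, 4 (Top2a, Kif11, Cdk1 and Rrm2) lay within the background range in naive adults, so the sizes of their differences from naive adults, here and in neonates, depend on that background. The mean of 9 T cell markers was 5.84 to 6.05 in naive and 5.52 to 5.78 in effector arrays, with 1 higher and 3 lower by limma. The mean of 4 B cell markers was 4.34 to 4.83 and 4.57 to 4.77 (1 higher, 0 lower), that of 8 macrophage and dendritic cell markers 4.53 to 4.87 and 4.38 to 4.46 (1 higher, 2 lower), and that of 10 epithelial and endothelial markers 4.71 to 5.57 and 4.84 to 5.19 (0 higher, 1 lower). Among the T cell markers, Lat lay at 8.80 or more in every array and Cd8a at 4.28 or less. The mean of that list may therefore not report T cells. Beside these marker counts, 23.7% of all genes were called higher and 10.9% lower in effector adults. The part of proliferation and of other cells in the proteasome values was not tested. With arrays centred on their own medians, the median difference over all genes moved from 0.03 to 0.17, the higher share of all calls from 68.5% to 83% and the proteasome genes called higher from 36 to 41; after a further quantile normalization 31 were called, and 0 were lower under either.

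Fewer proteasome genes were called in females than in males, and no difference between the responses was called. In females 13 of 47 proteasome genes were higher and 0 lower in effector than in naive cells, against 10.2% and 3.77% of all genes, with a median difference of 0.47. In males 36 were higher and 0 lower, against 18.7% and 6.25%, with a median of 0.81; without the 2 genes matched by name only the counts were 12 and 35 of 45. Limma's test of the difference of the responses called 0 of the 47 and 0% of all genes, with 5 of the 47 and 5.33% of all genes at an unadjusted p under 0.05. The female response was below the male in 46 of the 47, with a median difference of -0.30 against -0.08 over all genes. The 47 genes were read on the same arrays, so they are not separate observations. The male response rests on naive male arrays, where the background measure was 5.43 against 5.03 in naive females. The part of this background in the difference was not tested. Psmb9 rose by 0.94 ± 0.21 in females (limma adjusted p = 0.0079), where Psmb8, at 0.36 ± 0.17 (0.190), was not called. For Psmb9 the female response minus the male was -0.59 ± 0.30 (limma adjusted p = 0.934). The count of 13 in females was 8 without naive female 2, 7 without naive female 3 and 6 without effector female 2, and it was 20 after centring, 22 with array weights and 8 after quantile normalization.

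Between naive females and naive males no proteasome gene was called. Of the 47 genes, 43 had a higher mean in naive females than in naive males, with a median difference of 0.25 against 0.09 over all genes, of which 10286 of 16257 were also higher in naive females. The 47 genes were read on the same arrays, so they are not separate observations. The background measure was 5.03 in naive females and 5.43 in naive males, and its part in these differences was not tested. Limma called 0 of the 47 and 0.209% of all genes, and 11 of the 47 and 9.93% of all genes had an unadjusted p under 0.05. In 16 genes every naive female array lay above every naive male array, against 10.1% of all genes. These included all 3 immunoproteasome subunits, with differences of 0.50 ± 0.21 for Psmb9, 0.40 ± 0.17 for Psmb8 and 0.32 ± 0.14 for Psmb10 (limma adjusted p = 0.442, 0.453 and 0.482), and Psme2, at 0.55 ± 0.18 (0.316). In effector cells the median difference between the sexes was -0.09, with 0 of the 47 and 0.0308% of all genes called and 0 of the 47 and 2.04% of all genes at an unadjusted p under 0.05. Both naive male arrays named above as least correlated belong to this comparison. Without them naive male 2 would be the only naive male array, so no count without them is given.

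Against naive adults, Psme3 was called higher and Psmb10 lower in neonates. These were 1 and 1 of 47 genes, near or below the 6.04% and 4.12% of all genes. At an unadjusted p under 0.05 there were 13 of 47, near the 25.3% of all genes. The median difference was 0.04 against 0.02 over all genes. The gene called lower was Psmb10, at 9.22, 9.31 and 9.39 in the neonatal arrays. Each of these lay below every naive adult array (9.48 to 9.98), and Psmb10 fell by 0.46 ± 0.13 or 1.37-fold (95% interval -0.72 to -0.19, n = 3 and 6, limma adjusted p = 0.0315). The call was lost without any of naive female 1, naive female 3, neonate 1 and neonate 2, after centring, with array weights and with only the arrays compared. The gene called higher was Psme3, at 6.89, 6.85 and 7.23. These arrays overlapped the naive range of 6.03 to 6.86, and Psme3 rose by 0.69 ± 0.16 or 1.62-fold (limma adjusted p = 0.0114), a call lost with array weights and with only the arrays compared. Psmb8, at 7.57, 7.73 and 8.03, and Psmb9, at 8.13, 8.83 and 8.90, were not called, with differences of -0.24 ± 0.15 and 0.16 ± 0.18 (limma adjusted p = 0.331 and 0.629). Leaving out naive female 3 or neonate 1 left 1 call, and leaving out neonate 2 gave 5.

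Among the pairs, Psmb10 minus Psmb7 was -0.01, 0.81 and 0.21 in the neonatal arrays, all below the naive range of 0.92 to 1.43. The change of -0.82 had an exact permutation p of 0.0119, the smallest that 84 permutations can give (adjusted 0.0268). With a neonatal array left out it stayed between -1.06 and -0.65; only 28 permutations then exist, whose smallest p of 0.0357 was reached each time and did not pass the adjustment, which says nothing about stability. Psmb7 itself varied widely among neonates, at 9.23, 8.49 and 9.18. Psmb9 minus Psmb6 and Psmb8 minus Psmb5 changed by 0.17 and -0.24 and were not called (exact permutation p = 0.512 and 0.405, adjusted 0.576 and 0.520).

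Against effector adults, 24 of 47 proteasome genes were lower in neonates and 0 higher, against 14.7% and 5.93% of all genes. The median difference was -0.53, and 23 of 45 were lower without the genes matched by name only. In 32 of the 47 every neonatal array lay below every effector array, as in 16.2% of all genes. These shares are over genes of any level, not bright genes alone. All 3 immunoproteasome subunits were called: Psmb9 fell by 1.07 ± 0.18, Psmb8 by 0.81 ± 0.15 and Psmb10 by 0.70 ± 0.13 (limma adjusted p = 0.0010, 0.0017 and 0.0014), each lower in every neonatal array than in any effector array. So were all 6 cap ATPases, led by Psmc1, which fell by 1.01 ± 0.19 (0.0021), 5 of 6 alpha ring genes, 4 of 11 cap non-ATPases and 4 of 7 assembly chaperones. Of the standard catalytic subunits only Psmb5 was called, which fell by 0.80 ± 0.15 (0.0021), and of the 4 beta ring subunits without an active site and the 4 activators none was called, with 3 of these 8 and 34.3% of all genes at an unadjusted p under 0.05. Psmb9 minus Psmb6 fell by 0.85 from effector adults to neonates (exact permutation p = 0.0119, adjusted 0.0268), and by 0.55 to 1.03 with an array left out, where the same limit of the permutations held for neonatal arrays. The other pairs, at -0.01 for Psmb8 minus Psmb5 and -0.21 for Psmb10 minus Psmb7, were not called (exact permutation p = 0.929 and 0.250). Without neonate 2 the count of 24 became 15. The comparisons of neonates share the neonatal arrays, and the comparisons with naive adults share the naive arrays.

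The neonatal mean lay between those of naive and effector adults for 26 of the 47 genes, below both for 20 and above both for Psma5, which was at background. The proliferation genes also lay between: all 6 were higher in neonates than in naive adults, by a median of 3.06, and lower than in effector adults by a median difference of -1.21. Of the partners, Txnl1 and Zfand5, which stimulates the proteasome, rose by 0.91 ± 0.21 and 0.58 ± 0.15 against naive adults (limma adjusted p = 0.0121 and 0.0218), calls lost without neonate 1. Among MHC class I presentation genes Calr rose by 0.77 ± 0.16 and Canx by 0.45 ± 0.14 (0.0075 and 0.0497), the latter lost when any array but naive male 1 was left out, and 0 of 13 were called lower. Of the interferon genes, Jak2 rose by 0.80 ± 0.18 and Ifnar1 by 0.76 ± 0.22 (limma adjusted p = 0.0102 and 0.0384); the Jak2 call was lost without neonate 1 and the Ifnar1 call without, among others, naive male 2. Against effector adults Tap1 fell by 1.14 ± 0.17, Stat2 by 1.51 ± 0.30 and Irf8 by 1.17 ± 0.23 (limma adjusted p = 4.35e-04, 0.0029 and 0.0028). Genes listed as markers of other cells also differed in neonates, though which cells gave their signal was not tested. Sftpc, the surfactant protein of alveolar epithelium, was higher than in naive adults by 1.98 ± 0.46 (limma adjusted p = 0.0128), a call lost without neonate 1. Cd3e, a T cell receptor chain, was higher by 1.21 ± 0.25 (limma adjusted p = 0.0059). Lat, a T cell signalling adaptor, fell by 0.92 ± 0.14 (limma adjusted p = 8.30e-04), and Xcr1, a dendritic cell receptor, by 0.82 ± 0.22 (0.0288), the latter lost without any of naive male 2, naive female 3 and neonate 3. Cd68, a macrophage marker, rose by 0.72 ± 0.21 (0.0436), a call lost when any of 11 single arrays was left out. These were 1 higher and 1 lower of 9 T cell markers, 1 and 1 of 8 macrophage and dendritic cell markers, 1 and 0 of 10 epithelial and endothelial markers and 0 of 4 B cell markers. Over all genes 6.04% were called higher and 4.12% lower in neonates than in naive adults. The mean of the T cell markers was 5.88 to 6.35, that of the macrophage and dendritic cell markers 4.48 to 4.83 and that of the epithelial and endothelial markers 5.30 to 5.38 in neonatal arrays, and their part in the proteasome values was not tested.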

How the data were processed

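RNA from lung ILC2s was hybridised to 15 Affymetrix arrays, labelled with biotin by the Nugen Encore kit after Trizol extraction, per the labels' protocols. The deposited values are log2 levels that the authors made with Affymetrix Expression Console and RMA, per the submitters' processing notes; the sources used here do not give versions or annotation. RMA normalizes arrays to each other, which hides a change in total RNA. For arrays, their number limits the precision.

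Features with exactly 1 gene symbol (23521 of 41345) were kept if above their array's percentile 40 in at least 3 arrays, leaving 16257 genes. A model with 5 group means took in all 15 arrays (limma 3.58.1, R 4.3.3), with 10 residual and 5.05 prior degrees of freedom. It gave 8 comparisons, and those that pooled adult females and males weighted the sexes equally. Tests were two-sided, with p adjusted over the 16257 genes and a threshold of 0.05. Errors with log2 differences are moderated SEs, and intervals are 95% intervals of that fit. Pair differences were tested by exact permutation over arrays. The fit was tested on simulated data. Motifs were searched in RefSeq promoter windows of GRCm38.p6, with chromosome 18 left out. Members, lists and tests were chosen with earlier results of these data known, and named genes by a written rule: catalytic subunits, activators and inhibitor, the largest and smallest differences of each other role, and up to 4 called genes of each other list. All 49 genes were found in a RefSeq gene table, which changed 0 symbols. Alternatives covered filters, scaling, priors, weights, blocks and arrays left out.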

Additional observations from a re-analysis of the deposited data

How the results depend on the processing

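The direction of every member called in the comparisons with calls was kept under all alternatives. Of the 36 genes called in effector against naive adults, 30 were called under every alternative, 33 when any array was left out and 31 under both scalings; the count ranged from 33 to 37 with an array left out. For females it ranged from 6 to 15, for males from 25 to 37, and it was 20 after centring, 8 after quantile normalization and 22 with array weights in females. For neonates it ranged from 1 to 5 against naive adults and from 15 to 28 against effector adults. Against naive adults it was 1 after centring, 0 with array weights, 0 with only the arrays compared, 4 without the 3 least correlated arrays and 1 against adult females only. For the difference of responses and for naive sexes no count without these 3 arrays is given, since naive male 2 would be the only naive male array. Naive sexes gave 0 to 1 with an array left out (1 without naive male 3), and the difference of responses and effector sexes 0.

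Left-out arrays moved Psmb8 minus Psmb5 between -0.34 and -0.09 (effector against naive adults), -0.39 and -0.10 (neonates against naive) and -0.16 and 0.10 (neonates against effector). Psmb9 minus Psmb6 moved between 0.92 and 1.08, -0.0075 and 0.47, and -1.03 and -0.55. Psmb10 minus Psmb7 moved between -0.66 and -0.55, -1.06 and -0.65, and -0.45 and -0.04. Psmb8 minus Psmb5 in neonates against effector adults turned to 0.15 after quantile normalization and 0.039 without the 3 least correlated arrays. Without these, Psmb8 minus Psmb5 in effector against naive adults was called at -0.39, Psmb9 minus Psmb6 in neonates against naive adults turned to -0.0367, and calls were lost at -0.96 (Psmb9 minus Psmb6, neonates against effector adults) and -1.09 (Psmb10 minus Psmb7, neonates against naive adults), where 28 and 15 permutations allow no p below 0.0357 and 0.0667. Replicate numbers did not pair the arrays: of 30 same-numbered pairs 0 correlated over 0.1 in their deviations, and 5 of 15 arrays matched their own number best. With the replicate block, -0.85 (Psmb9 minus Psmb6, neonates against effector adults) and -0.82 (Psmb10 minus Psmb7, neonates against naive adults) were not called (exact permutation, adjusted p = 0.0833); 27 arrangements within blocks allow no p below 0.037, so this says nothing about stability. After centring, the higher share of calls in neonates against effector adults moved from 28.8% to 16.4% and the proteasome genes called lower from 24 to 33; after quantile normalization 20 were lower.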
